A study of Mus musculus with 22 samples.

Results

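Counts of 36 genes of DNA replication and S phase were followed in bulk RNA sequencing of CD11b+ cells from the brains of neonatal mice of the outbred CF-1 strain. The members are a fixed list of genes of replication licensing, the replicative helicase, the clamp and its loader, DNA polymerases and primase, Okazaki fragment maturation, deoxynucleotide supply, maintenance methylation and control of S-phase entry. All 36 symbols matched 1 Ensembl identifier each among the 56691 genes of the deposited tables. The rule itself uses no measured value, but the list was chosen with earlier results of these data known. CD11b sits on the surface of microglia and related myeloid cells, and magnetic beads were used to enrich for it.

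There were 20 animals in 5 groups of 4. In the HIE (hypoxic-ischemic encephalopathy) groups, dams were given lipopolysaccharide (LPS), an immune-activating component of bacteria, late in gestation, and the pups then had a brief hypoxia on P6. Dams of control animals received saline, and control pups stayed in normal air. HIE and control cells were taken on P7 and P14, and a further P14 group is labelled hypoxia. Its treatment is not given in the sources used here. All animals were wildtype. The labels give the P7 controls the days P8, P9, P10 and P11, 1 pup each, whereas the study's methods give P7, so age and treatment cannot be told apart within that day. All 4 HIE pups of P7 are labelled male, and every other group holds 2 males and 2 females. Animals share name prefixes in pairs, and such a pair is called a litter here, although the sources do not define the names. Each litter belongs to 1 treatment, so litter and treatment cannot be told apart. Littermates entered all tests as separate animals, so SEs and p-values do not measure the spread between litters. On P14 the names begin with P4H in 2 HIE and 2 control animals and with P6H in the other 8, including all 4 hypoxia animals.

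Libraries held 70191584 to 83469067 expected counts on P7 and 29751540 to 46404123 on P14, and 25 to 12440 of an animal's reads fell on a member. The 11 microglia markers that matched an identifier were detected in every animal. Their summed level was 16942 to 19193 CPM (a gene's counts scaled to an effective library size of 1000000) in the HIE pups of P7 and 17060.1 to 30130.2 CPM in the P14 animals. In the P7 controls it was 13249 and 15124 CPM in litter P6H55 and 1356 and 2080.4 CPM in litter P6H63, which stands apart. Counts of called members on P7 and with age are therefore also given without litter P6H63. Other P7 values include it unless stated otherwise.

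Before S phase, Cdc6 and Cdt1 load the MCM2-7 helicase on origins of replication, and Mcm10, Cdc45 and the GINS complex turn it into an active helicase. Replication factor C loads the ring-shaped clamp Pcna, which holds polymerases on DNA, while ribonucleotide reductase, thymidylate synthase and thymidine kinase supply deoxynucleotides. E2F factors drive transcription of many of these genes at the start of S phase. Microglia divide in the early postnatal mouse brain and slow down as it matures.

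All 36 replication genes were lower on P14 than on P7, in control and in HIE animals alike. By edgeR's quasi-likelihood test with Benjamini-Hochberg adjustment over all 24693 genes tested, 36 of 36 members passed an adjusted p of 0.05 in the control animals, where 25.4% of all genes passed with a fall. In the HIE animals 36 of 36 passed as well, and 16.2% of all genes did. DESeq2 called the same 36 lower in both. The median log2 fold change of the members was -1.73 in controls and -1.66 in HIE animals, beside -0.05 and 0.03 over all genes tested. In CPM, the P7 mean of a member was a median of 3.34 times its P14 mean in controls, with a range of 1.42 to 8.46, and 3.15 times in HIE animals, with a range of 1.35 to 7.49. The largest adjusted p of a member was 0.00136 in controls and 0.0031 in HIE animals. P7 and P14 libraries come from separate tables with different depths, which are named as batches in the deposit, so age and batch cannot be told apart. In bulk cells, fewer cells in S phase and less RNA per cell cannot be told apart either.

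The groups did not overlap for any member. In controls all 36 had every P14 animal below every P7 animal, as had 19.2% of all genes, and in HIE animals all 36 did, as had 22.5% of all genes. Taking all 8 P7 animals against all 12 P14 animals, hypoxia included, 35 of 36 members had their lowest P7 value above their highest P14 value, beside 9.58% of all genes tested. The lowest P7 value was a median of 1.84 times the highest P14 value, and 4.98 times for Uhrf1. The exception was Pola1, with 31.5 CPM in the lowest P7 animal and 32.1 CPM in the highest P14 animal.

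**Figure D1:**
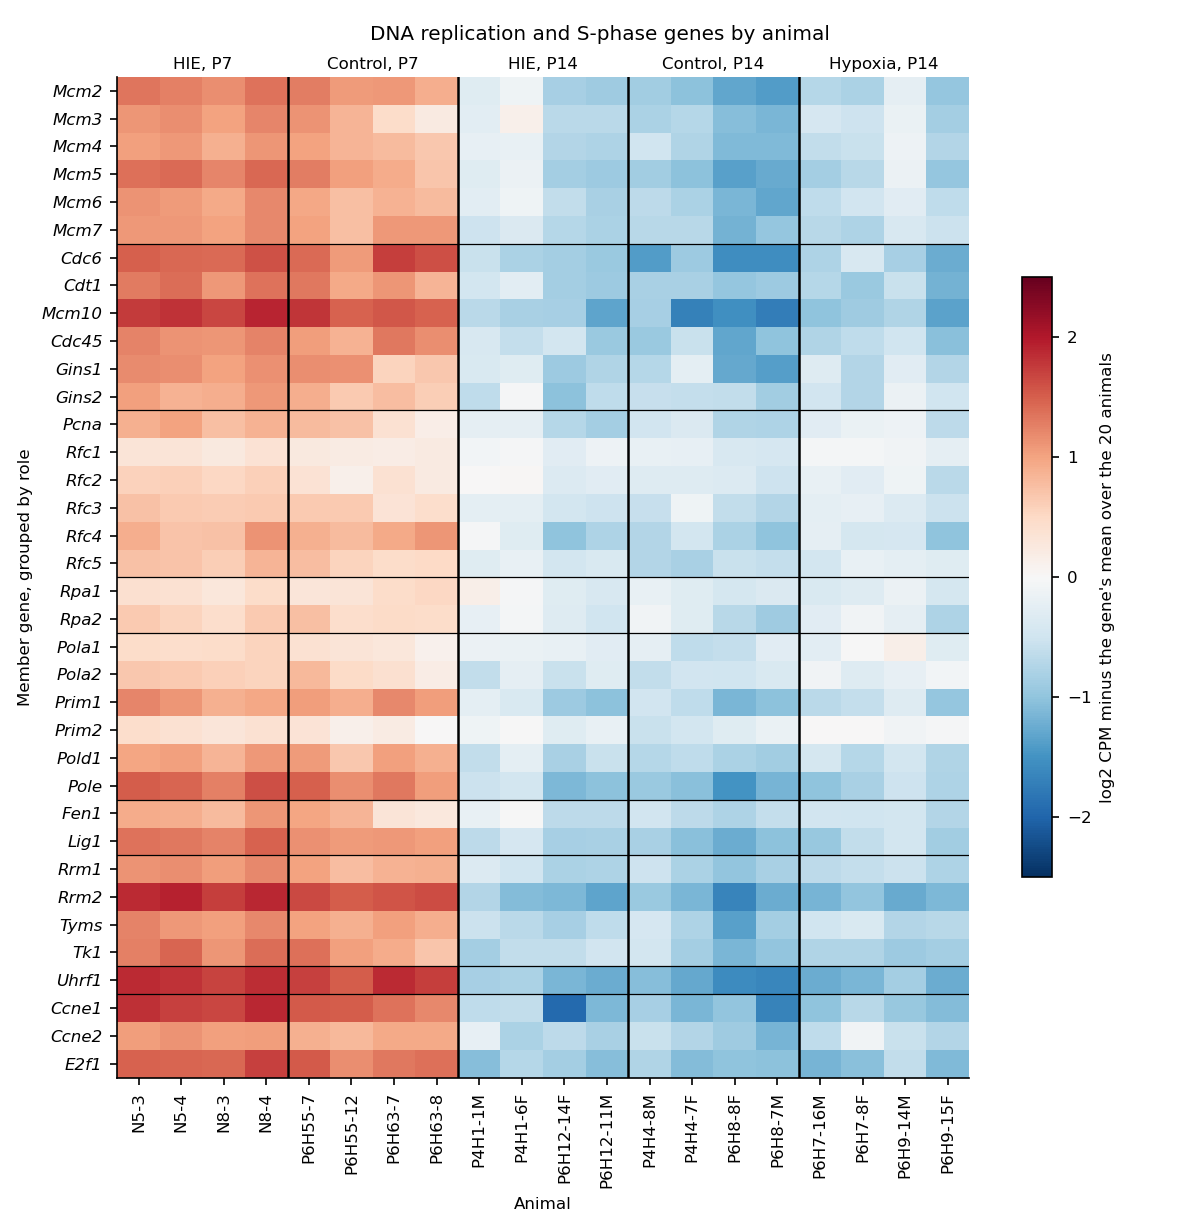
Heat map of the 36 members (vertical axis, grouped by role) in the 20 animals (horizontal axis, grouped by treatment and day), coloured by log2 CPM minus the gene's mean over all animals. The 8 columns of P7 are red and the 12 of P14 blue for nearly every gene, with the palest contrast in Rfc1, Prim2, Pola1 and Rpa1.

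Falls are summarised by role, with no test between roles. Median log2 fold changes in control and HIE animals were -1.99 and -1.83 for the 6 genes of licensing and helicase activation, -1.82 and -1.59 for the 6 helicase subunits, -1.82 and -1.88 for the 4 genes of nucleotide supply, and -2.32 and -2.44 for the 3 genes of S-phase entry. They were -1.68 and -1.65 for the 2 genes of Okazaki fragment maturation and -1.33 and -1.29 for the 6 genes of polymerases and primase. Clamp and clamp loader, 6 genes, had medians of -1.06 and -1.04, and the 2 genes of single-strand binding -0.85 and -0.67. In 8 members the log2 fold change was under -2 in both groups, and in 6 it was above -1 in both.

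**Figure D2:**
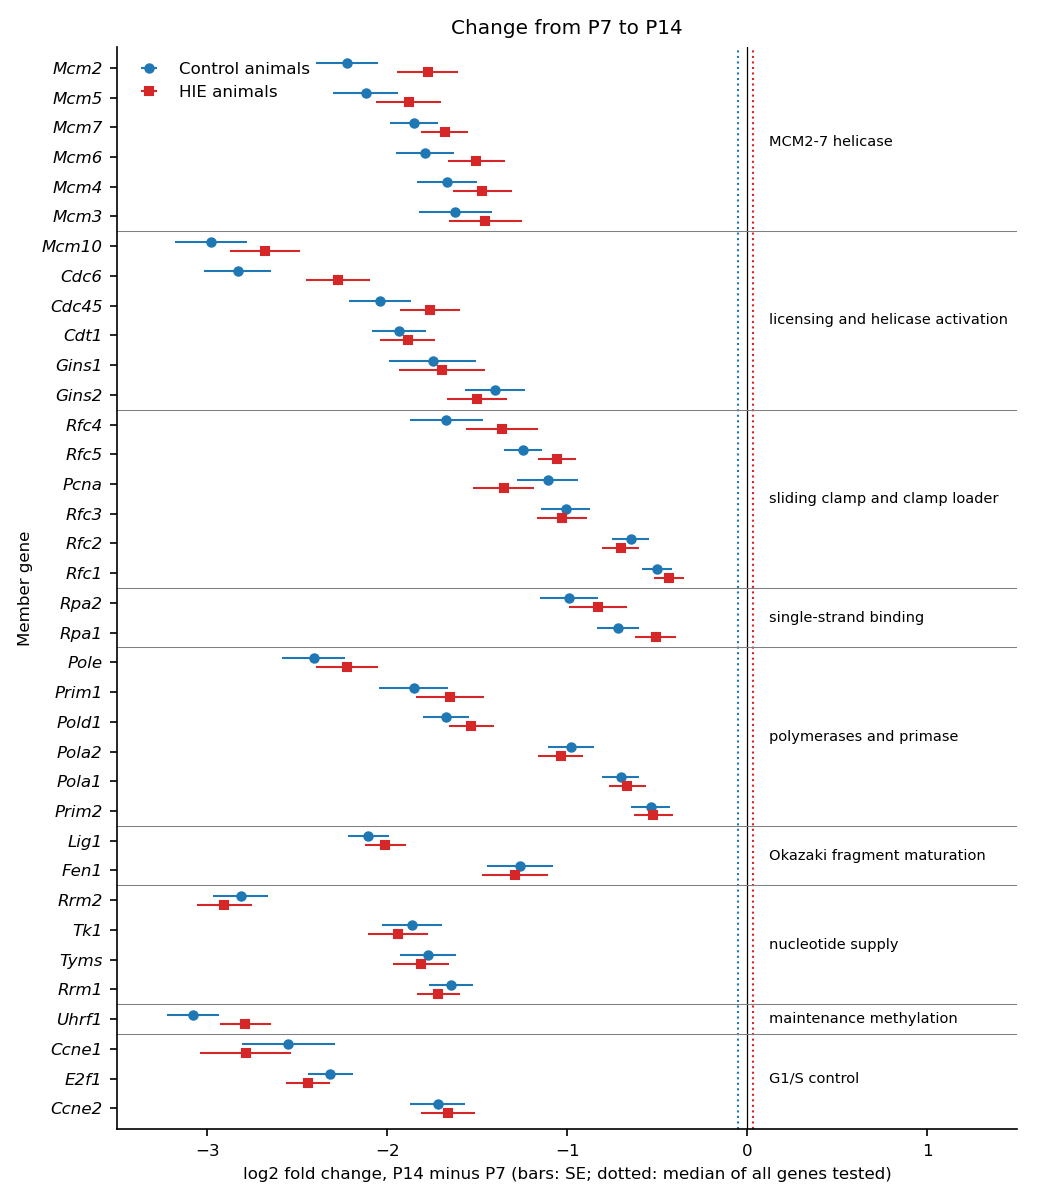
Log2 fold change from P7 to P14 (horizontal axis) of each member (vertical axis, ordered within its role), with the control estimate as a circle, the HIE estimate as a square, SE bars, and dotted lines at the median of all genes tested. All estimates lie left of the dotted lines, from -3.08 for Uhrf1 to -0.44 for Rfc1.

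Because these genes fell together, the 250 bases before their start sites were searched for the letters of E2F sites. The search used TTTCCCGC, TTTGGCGC, TTTCGCGC and TTTGCCGC with their reverse complements in RefSeq promoters of GRCm38.p6, an older build than the GRCm39 of the counts. Of the 36 members 29 were in that table, and 7 of them (24.1%) held a match, namely Cdc6, Mcm5, Mcm6, Mcm7, Pola1, Rfc3 and Uhrf1. One was held by 2.16% of all 27025 genes listed there. Of the wider replication list described further on, 14 of 60 (23.3%) did, and of 20 genes of G2 and mitosis, 17 of them listed, 1 (5.88%) did. The CCAAT box, searched as CCAAT or ATTGG, was in 17 of 29 members (58.6%), 15 of 17 mitosis genes (88.2%) and 37.5% of all genes. The cell cycle element TTTGAA, or TTCAAA, was in 3 of 29 members (10.3%), 6 of 17 mitosis genes (35.3%) and 18.3% of all genes. None of these motifs contains another. The median share of G and C in these bases was 60.4% in members, 61.6% in mitosis genes and 63% in the wider list. It was 52.4% over all genes, and its part in the matches was not tested. A match describes letters and not a bound site.

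Promoters of 5 of the 7 are printed 5′ to 3′ on the gene's strand, from the member with the steepest fall in controls to one of the shallowest, with the E2F letters in capitals. They lie at chr17:56304063-56304312 (plus strand, Uhrf1), chr11:98907901-98908150 (plus strand, Cdc6), chr8:75109259-75109508 (plus strand, Mcm5), chr1:128359706-128359955 (minus strand, Mcm6) and chrX:93632156-93632405 (minus strand, Pola1) of GRCm38.p6.
Uhrf1: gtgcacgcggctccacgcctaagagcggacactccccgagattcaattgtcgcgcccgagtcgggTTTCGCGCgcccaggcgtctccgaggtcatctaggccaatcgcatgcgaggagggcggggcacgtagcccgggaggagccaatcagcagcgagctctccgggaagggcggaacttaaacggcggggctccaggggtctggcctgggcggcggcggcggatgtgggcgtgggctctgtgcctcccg
Cdc6: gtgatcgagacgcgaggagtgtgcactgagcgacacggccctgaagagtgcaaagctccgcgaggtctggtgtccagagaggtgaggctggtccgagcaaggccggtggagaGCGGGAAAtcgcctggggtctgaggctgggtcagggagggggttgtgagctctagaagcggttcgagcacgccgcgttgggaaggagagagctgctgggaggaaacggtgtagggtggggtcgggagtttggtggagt
Mcm5: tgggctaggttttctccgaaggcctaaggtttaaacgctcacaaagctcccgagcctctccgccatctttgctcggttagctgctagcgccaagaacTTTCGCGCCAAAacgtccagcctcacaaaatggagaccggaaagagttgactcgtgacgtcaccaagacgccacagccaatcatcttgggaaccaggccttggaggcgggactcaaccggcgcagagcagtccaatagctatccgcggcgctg
Mcm6: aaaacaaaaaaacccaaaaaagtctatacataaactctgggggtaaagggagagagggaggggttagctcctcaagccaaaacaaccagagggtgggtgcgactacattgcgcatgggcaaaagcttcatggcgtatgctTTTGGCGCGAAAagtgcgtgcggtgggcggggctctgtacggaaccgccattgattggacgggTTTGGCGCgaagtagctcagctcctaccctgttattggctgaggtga
Pola1: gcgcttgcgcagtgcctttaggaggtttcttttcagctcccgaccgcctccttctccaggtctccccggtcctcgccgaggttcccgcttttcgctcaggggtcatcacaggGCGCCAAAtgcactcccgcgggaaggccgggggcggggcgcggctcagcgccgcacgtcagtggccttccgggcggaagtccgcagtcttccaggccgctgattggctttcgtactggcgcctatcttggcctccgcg
In Mcm5 and Mcm6 a match on one strand overlaps a match on the other, so the capitals run over both, and Mcm6 holds a further match. Counted from the start site, the first base of a match lay 185 bases upstream in Uhrf1, 138 in Cdc6 and in Pola1, 153 and 149 in Mcm5, and 110, 106 and 47 in Mcm6. The log2 fold changes of members with a match ran from -3.08 to -0.70 in controls, with a median of -1.85. In the 22 members without one they ran from -2.98 to -0.50, with a median of -1.72. The 2 ranges overlap over nearly their whole length.

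In what follows, values of the HIE pups of P7 are given in the order N5-3, N5-4, N8-3 and N8-4, and those of the controls in the order P6H55-7, P6H55-12, P6H63-7 and P6H63-8. On P14 the order is P4H1-1M, P4H1-6F, P6H12-14F and P6H12-11M in HIE, P4H4-8M, P4H4-7F, P6H8-8F and P6H8-7M in controls, and P6H7-16M, P6H7-8F, P6H9-14M and P6H9-15F in hypoxia. Values are CPM, and gene positions are those of GRCm39.

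The MCM2-7 ring unwinds DNA ahead of the polymerases. Mcm2 (chr6:88860452-88875762, minus strand) had 95.4, 91.1, 84.3 and 96.6 CPM in HIE and 91.2, 79.5, 80.3 and 70.6 CPM in control animals of P7. On P14 it had 30.4, 35.1, 21.2 and 20.4 CPM in HIE, 20.6, 18.5, 15.4 and 14.3 CPM in controls and 23.00, 21.9, 32.1 and 19.3 CPM in hypoxia. Every P7 animal was at least 2.01 times as high as the highest P14 animal, P4H1-6F. The log2 fold change with age was -2.22 in controls (SE 0.173) and -1.78 in HIE animals (SE 0.17). Mcm5 (chr8:75836140-75856231, plus strand), whose promoter is printed above, had 93.9, 95.8, 83.5 and 97.1 CPM in HIE and 87.6, 73.5, 68.6 and 58.2 CPM in controls on P7, and 28.99, 32.3, 19.8 and 19.2 CPM, 19.6, 17.6, 13.97 and 14.9 CPM and 19.9, 22.2, 32.5 and 18.3 CPM in HIE, controls and hypoxia on P14. As for Mcm2, control P6H63-8 was the lowest animal of P7 and both controls of litter P6H8 were the lowest of P14. Its log2 fold change was -2.12 in controls (SE 0.18) and -1.88 in HIE animals (SE 0.178). The other 4 subunits fell by 1.85 (Mcm7), 1.79 (Mcm6), 1.67 (Mcm4) and 1.62 (Mcm3) on the log2 scale in controls.

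Cdc6 and Cdt1 recruit the helicase to origins, and Cdc45 is a subunit of the working helicase. Cdc6 (chr11:98798507-98814766, plus strand) had 11.3, 10.97, 10.8 and 12.1 CPM in HIE and 10.7, 8.46, 13.4 and 12.3 CPM in controls of P7, where litter P6H63 was highest. By P14 the values were 2.73, 2.29, 2.21 and 2.102 CPM in HIE, 1.505, 2.11, 1.34 and 1.34 CPM in controls and 2.32, 3.03, 2.23 and 1.69 CPM in hypoxia, and 3 of the 4 controls lay below all 8 HIE and hypoxia animals. Its log2 fold change was -2.83 in controls (SE 0.186) and -2.27 in HIE animals (SE 0.179). Cdt1 (chr8:123294703-123300293, plus strand) went from 35.2, 37.3, 30.1 and 36.5 CPM in HIE and 35.3, 27.4, 30.7 and 25.7 CPM in controls to 10.4, 11.8, 7.85 and 7.502 CPM, 8.09, 8.12, 7.27 and 7.55 CPM and 8.597, 7.49, 9.704 and 6.22 CPM in HIE, controls and hypoxia, a log2 fold change of -1.94 in controls (SE 0.152) and -1.89 in HIE animals (SE 0.151). Its days did not overlap, and its P14 groups did. Cdc45 (chr16:18599195-18631551, minus strand) had 13.05, 12.1, 11.9 and 13.2 CPM and 11.5, 10.1, 13.9 and 12.4 CPM in HIE and controls of P7. Its P14 values were 4.19, 3.66, 4.03 and 2.91 CPM, 2.88, 3.77, 2.22 and 2.72 CPM and 3.27, 3.56, 3.88 and 2.67 CPM in the 3 groups, with a log2 fold change of -2.04 in controls (SE 0.172) and -1.76 in HIE animals (SE 0.169). Mcm10, which helps to activate the helicase, fell by 2.98 on the log2 scale in controls and by 2.68 in HIE animals, the second largest fall of all members in controls.

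Pcna (chr2:132091082-132095234, minus strand), the sliding clamp, had 153, 164, 138 and 149.6 CPM in HIE and 142, 136, 106 and 92.04 CPM in controls of P7, with litter P6H63 lowest. On P14 it had 70.2, 70.4, 50.03 and 45.7 CPM in HIE, 59.2, 64.3, 48.6 and 48.4 CPM in controls and 67.8, 72.8, 75.1 and 51.8 CPM in hypoxia. Its log2 fold change was -1.11 in controls (SE 0.17) and -1.35 in HIE animals (SE 0.171). Relative to length it was the most abundant member throughout, at 49.6 CPM per kilobase of exon in the P7 controls, followed by Uhrf1 at 19.6 and Mcm6 at 17.7. The lowest members by this measure were Mcm10 at 1.85, Cdc6 at 2.05 and Ccne1 at 2.23 CPM per kilobase. Rfc1 (chr5:65418916-65493155, minus strand), the large subunit of the clamp loader, changed least. It had 72.2, 72.1, 68.8 and 74.9 CPM in HIE and 68.9, 66.6, 65.5 and 67.7 CPM in controls of P7 and 55.3, 56.9, 47.7 and 52.8 CPM, 50.96, 50.6, 43.9 and 43.5 CPM and 56.3, 56.4, 54.3 and 49.8 CPM in the P14 groups. The log2 fold change was -0.50 in controls (SE 0.0835) and -0.44 in HIE animals (SE 0.0833). Rpa2 (chr4:132495643-132506063, plus strand), a subunit of the protein that coats single-stranded DNA, had 19.5, 18.1, 16.6 and 19.3 CPM and 20.8, 16.8, 17.1 and 16.9 CPM in HIE and controls of P7. It had 10.8, 11.98, 9.79 and 8.74 CPM, 11.6, 9.94, 7.63 and 6.66 CPM and 10.1, 11.5, 10.6 and 7.199 CPM in the P14 groups, a log2 fold change of -0.99 in controls (SE 0.162) and -0.83 in HIE animals (SE 0.161).

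Pola1 (chrX:92348365-92675813, minus strand), the catalytic subunit of the polymerase that starts new strands, had 39.8, 39.3, 40.1 and 42.7 CPM in HIE and 37.8, 36.5, 35.4 and 31.5 CPM in controls of P7. On P14 it had 26.3, 26.1, 25.7 and 23.9 CPM, 24.8, 18.7, 19.2 and 23.8 CPM and 24.3, 28.9, 32.1 and 23.6 CPM in HIE, controls and hypoxia, so that hypoxia animal P6H9-14M lay above P7 control P6H63-8. With age the log2 fold change was -0.70 in controls (SE 0.104) and -0.67 in HIE animals (SE 0.104). Pole (chr5:110434172-110486287, plus strand), the catalytic subunit of the leading-strand polymerase, fell from 50.99, 49.2, 43.1 and 55.1 CPM in HIE and 50.7, 40.05, 44.8 and 37.1 CPM in controls to 12.3, 13.1, 8.18 and 8.75 CPM, 9.41, 8.62, 6.37 and 8.003 CPM and 8.89, 10.3, 12.6 and 10.5 CPM on P14. Its log2 fold change, -2.41 in controls (SE 0.174) and -2.22 in HIE animals (SE 0.172), was the steepest of this role. Both primase subunits were tested, with Prim1 falling by 1.85 and Prim2 by 0.54 on the log2 scale in controls.

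Fen1 and Lig1 trim and join Okazaki fragments. Fen1 (chr19:10176479-10182097, minus strand) had 38.4, 37.8, 34.98 and 43.2 CPM in HIE and 39.9, 36.3, 25.2 and 24.1 CPM in controls of P7, with litter P6H63 lowest, and 17.6, 19.98, 12.7 and 12.7 CPM, 14.5, 12.8, 11.7 and 13.2 CPM and 14.4, 14.2, 14.6 and 12.1 CPM in the P14 groups, a log2 fold change of -1.26 in controls (SE 0.183) and -1.29 in HIE animals (SE 0.182). For Lig1 (chr7:13011239-13045350, plus strand) the P7 values were 64.4, 63.3, 59.2 and 69.9 CPM in HIE and 55.5, 52.8, 53.8 and 51.4 CPM in controls, and the P14 values 16.1, 18.9, 14.2 and 14.4 CPM, 14.4, 12.2, 10.6 and 12.3 CPM and 13.1, 16.5, 18.3 and 13.8 CPM. All HIE pups of P7 lay above all controls of that day for Lig1. With age its log2 fold change was -2.11 in controls (SE 0.115) and -2.01 in HIE animals (SE 0.114).

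Rrm2, the small subunit of ribonucleotide reductase, fell most among the genes of nucleotide supply. It (chr12:24757811-24764145, plus strand) had 53.5, 55.4, 48.2 and 53.8 CPM in HIE and 45.6, 41.5, 43.6 and 45.2 CPM in controls of P7 and 8.78, 6.83, 6.697 and 5.85 CPM, 7.63, 6.57, 4.59 and 6.11 CPM and 6.51, 7.29, 6.04 and 6.68 CPM in the P14 groups. The lowest HIE pup of P7 lay above the highest control, whereas the P14 groups overlapped. Its log2 fold change was -2.81 in controls (SE 0.152) and -2.90 in HIE animals (SE 0.152). Tyms (chr5:30263198-30278633, minus strand), thymidylate synthase, went from 25.98, 23.3, 22.5 and 25.2 CPM in HIE and 22.1, 20.2, 22.3 and 20.5 CPM in controls to 7.51, 6.87, 6.15 and 7.01 CPM, 8.21, 6.35, 4.24 and 6.05 CPM and 7.71, 8.39, 6.59 and 6.77 CPM, a log2 fold change of -1.77 in controls (SE 0.156) and -1.81 in HIE animals (SE 0.155). Tk1 (chr11:117702770-117717042, minus strand), thymidine kinase, had 32.05, 36.8, 28.9 and 35.3 CPM and 34.7, 27.3, 25.5 and 21.6 CPM in HIE and controls of P7. Its P14 values were 7.46, 8.78, 8.76 and 9.604 CPM, 9.72, 7.39, 6.05 and 6.72 CPM and 7.94, 7.94, 7.07 and 7.44 CPM, with a log2 fold change of -1.86 in controls (SE 0.168) and -1.94 in HIE animals (SE 0.168). The P14 groups overlapped for both genes.

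Uhrf1 (chr17:56610275-56630489, plus strand), which brings the maintenance DNA methyltransferase to newly copied DNA, showed the largest fall in controls. It had 116, 111, 102 and 114 CPM in HIE and 103, 91.02, 115 and 104 CPM in controls of P7. On P14 it had 17.9, 18.3, 14.4 and 13.4 CPM in HIE, 15.02, 13.02, 10.6 and 10.1 CPM in controls and 13.4, 14.3, 17.5 and 13.4 CPM in hypoxia. The groups of P7 overlapped, and the log2 fold change with age was -3.08 in controls (SE 0.145) and -2.79 in HIE animals (SE 0.142). Cyclins E1 and E2, which activate the kinase of S-phase entry, and the factor E2f1 fell too. Ccne1 (chr7:37797404-37808264, minus strand) had 10.9, 10.02, 9.72 and 11.2 CPM in HIE and 8.88, 8.66, 7.76 and 7.001 CPM in controls of P7, and 1.93, 1.95, 0.758 and 1.37 CPM, 1.68, 1.35, 1.52 and 0.928 CPM and 1.49, 1.85, 1.54 and 1.41 CPM in the P14 groups. Its P14 groups overlapped, and its log2 fold change was -2.55 in controls (SE 0.256) and -2.79 in HIE animals (SE 0.255). Ccne2 (chr4:11190303-11204947, plus strand) went from 17.8, 18.8, 17.5 and 17.9 CPM in HIE and 15.95, 15.1, 16.7 and 16.7 CPM in controls to 7.46, 4.96, 5.45 and 4.91 CPM, 5.87, 5.19, 4.62 and 3.81 CPM and 5.503, 8.16, 5.82 and 5.15 CPM, a log2 fold change of -1.72 in controls (SE 0.153) and -1.66 in HIE animals (SE 0.151). E2f1 (chr2:154401326-154411812, minus strand) had 38.6, 37.8, 37.4 and 45.1 CPM and 39.9, 30.8, 34.6 and 36.1 CPM in HIE and controls of P7 and 6.61, 8.41, 7.64 and 6.58 CPM, 8.16, 6.51, 6.84 and 6.79 CPM and 6.16, 6.65, 9.01 and 6.43 CPM in the P14 groups. These P14 groups overlapped too, and the log2 fold change was -2.32 in controls (SE 0.124) and -2.44 in HIE animals (SE 0.124).

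**Figure D3:**
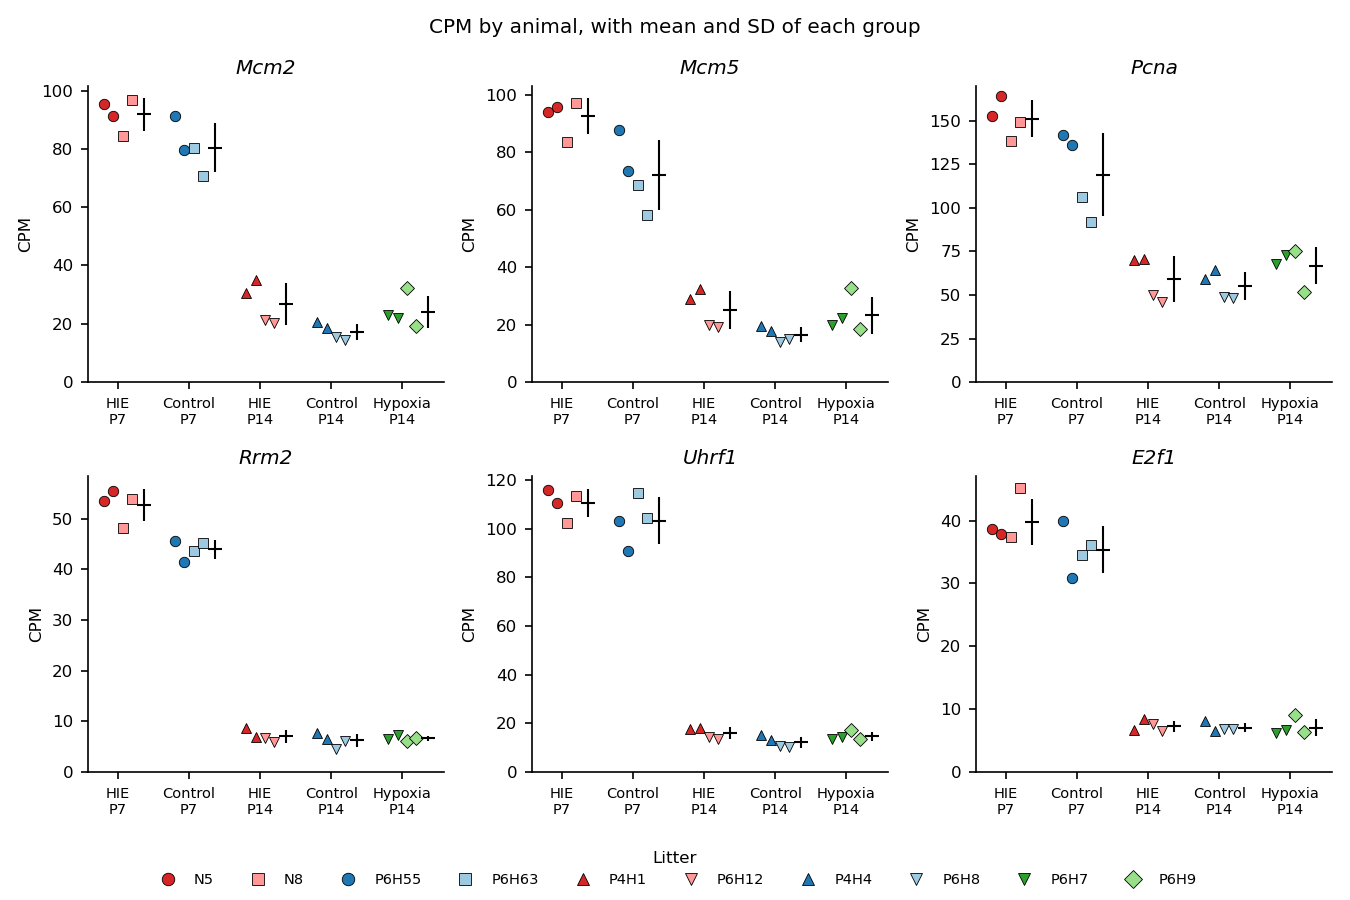
CPM (vertical axis, from 0) of Mcm2, Mcm5, Pcna, Rrm2, Uhrf1 and E2f1 in each animal, by group (horizontal axis), with symbols for litters and the group mean with SD (n = 4) beside the points. Every P7 point lies above every P14 point in all 6 panels, and litters P4H1 (HIE) and P6H8 (control) mark the top and bottom of Mcm2 and Mcm5 among HIE and control animals of P14.

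Other genes of the cell cycle moved with the members. Of 20 genes of G2 and mitosis all 20 passed with a fall in each group, with median log2 fold changes of -2.33 in controls and -2.43 in HIE animals. Of 76 further genes of the replication pathway 57 passed with a fall in each group, 2 with a rise in controls and 1 with a rise in HIE animals, and the medians were -1.05 and -1.06. The rises were those of Orc4, a subunit of the origin recognition complex, at 0.46 in controls (adjusted p = 0.00145) and 0.27 in HIE animals (adjusted p = 0.0408), and of Rb1, which holds E2F factors inactive, at 0.32 in controls (adjusted p = 0.00499). The smallest p-values among the falls in controls were those of Chaf1a, a histone chaperone at forks (-2.13), Wee1, an inhibitory kinase of CDKs (-2.17), and Hells, a chromatin remodeler (-2.37). In HIE animals they were those of E2f8, a repressor of the E2F family (-3.38), Fbxo5, an inhibitor of the anaphase-promoting complex (-1.79), and Ticrr, a factor of origin firing (-2.84). By role, falls passed in 9 of 10 genes of origin firing in controls and 10 of 10 in HIE animals, and in 7 and 6 of 7 genes of chromatin assembly at forks. They passed in 10 of 12 other polymerase and clamp subunits, 16 of 22 genes of E2F, RB and CDK control, 5 of 7 checkpoint genes, 5 of 8 other nucleotide enzymes and 5 of 10 genes of origin recognition and licensing, with the same counts in both groups.

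Markers of several cell types moved with age as well, in both directions. Of all 24693 genes tested, 5045 passed with a rise in controls and 4279 in HIE animals. Of 8 markers of neural progenitors 7 fell in controls and 3 in HIE animals, with medians of -1.03 and -0.97, and none was at or under 3 counts throughout a group. Their summed level was 218.6 to 331.2 CPM in the HIE pups of P7 and 219.7 to 781.6 CPM in the controls, beside 152.1 to 228.8 CPM, 200.4 to 287.7 CPM and 128.1 to 222.6 CPM in HIE, control and hypoxia animals of P14. The sum over the members was 1696 to 1926 CPM and 1472 to 1759 CPM on P7 and 570.3 to 768.7, 488.9 to 609.0 and 569.2 to 733.0 CPM on P14. Of 11 microglia markers 3 rose in controls and 1 in HIE animals, with medians of 1.39 and 0.46. Of 8 markers of the oligodendrocyte lineage 4 rose in each treatment, with medians of 1.09 in controls and 0.98 in HIE animals. Of 6 endothelial markers 5 fell in controls, with a median of -0.90, and 1 rose in HIE animals, with a median of 0.50. Their mean log2 CPM on P7 was 7.89 in control litter P6H63, 6.82 in P6H55 and 6.54 and 6.52 in HIE litters N5 and N8. On P14 it was 6.50 in controls and 6.96 in HIE animals. Changes of markers with age are not given without litter P6H63. Of 6 astrocyte markers 4 fell and 2 rose in controls, and 1 fell and 2 rose in HIE animals. Of 6 erythroid markers 3 rose in each treatment and 1 fell in HIE animals, with medians of 3.55 in controls and 4.58 in HIE animals. The part of these markers in the members' fall was not tested. Without litter P6H63, in which microglia markers were lowest and neural progenitor markers highest, 36 of 36 members still fell in both groups. Between the control litters of P7, the members' level in P6H63 was a median of 0.932 times that in P6H55, with a range of 0.638 to 1.34, beside 0.121 times for microglia markers and 2.74 times for neural progenitor markers.

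The fall from P7 to P14 was compared between HIE and control animals by the interaction of day and treatment. No member passed, as against 0.00405% of all genes tested, and DESeq2 called none. An unadjusted p under 0.05 was held by 1 member and by 3434 of all 24693 genes. The interaction was positive, a smaller fall in HIE, in 24 of 36 members, with a median of 0.08 beside 0.04 over all genes. The smallest p-values were those of Cdc6 at 0.56 (SE 0.246, edgeR adjusted p = 0.334) among positive values and Pcna at -0.24 (SE 0.237, edgeR adjusted p = 0.653) among negative ones. Without litter P6H63 0 members passed as well.

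On P7, estimates for these genes were mostly higher in HIE than in control pups, and no difference passed the quasi-likelihood test. Of 36 members 0 were called, beside 0.0666% of all 22517 genes tested. An unadjusted p under 0.05 was held by 7 members and by 6143 of all genes. The log2 fold change was positive in 32 of 36 members with a median of 0.18, beside -0.08 over all genes. Counts scaled by library size alone shifted the median of all genes by -0.20, left 14 of 36 members positive and gave a median of -0.01. Relative to the median of all genes, all 36 members were higher, by a median of 0.27. A change of scaling moves all genes nearly alike, so this relative value stays the same by construction and does not test the scaling. DESeq2 called 7 members higher, beside 4.33% of all genes, namely Rfc2, Lig1, Rrm2, Ccne1, Rrm1, Mcm6 and Ccne2.

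All HIE pups lay above all controls for 8 members, a pattern held by 9.2% of all genes. Rfc2, a clamp loader subunit with the smallest p, had 49.4, 50.5, 47.5 and 50.1 CPM in HIE and 42.5, 36.2, 43.1 and 38.99 CPM in controls, and differed by 0.29 on the log2 scale (SE 0.0822, edgeR adjusted p = 0.150). Rrm1, the large subunit of ribonucleotide reductase, had 126, 130.2, 119.9 and 133 CPM in HIE and 117, 99.8, 106 and 108 CPM in controls, and differed by 0.23. The other 6 were Lig1 (0.26), Rrm2 (0.25), Ccne1 (0.36), Pola1, Tyms and Ccne2, whose values by animal are above. The smallest p among negative values was that of Rfc4, at -0.06 (SE 0.134, edgeR adjusted p = 0.758). Mcm3 had 104, 107, 96.5 and 111 CPM in HIE, close to the 105 and 86.5 CPM of litter P6H55, and 66.3 and 55.8 CPM in litter P6H63, a log2 fold change of 0.41 in all. Against litter P6H63 alone 22 members were called and the median was 0.30. Against litter P6H55 alone 0 were called, and the median lay within 0.11 to 0.22. The HIE mean CPM was below that of P6H55 in Pola2 (0.976 times), Rpa2 (0.979) and Gins1 (0.986), and above it in the other members. The HIE pups of P7 are all labelled male and the controls of both sexes. With animals labelled male alone 0 members were called, and the median lay within 0.11 to 0.22. With the microglia marker score as a covariate the median was 0.09 and 0 were called. All 11 microglia markers had higher estimates in HIE, with a median of 1.13. All 6 choroid plexus, 6 astrocyte and 6 endothelial markers had lower ones, with medians of -1.45, -1.15 and -0.95, and DESeq2 called 6, 4 and 5 of them. All 8 neural progenitor markers (-1.09, DESeq2 called 2) and all 6 neuron markers (-0.67, DESeq2 called 0) were lower too. All 6 border macrophage markers were higher, with a median of 0.78. In each of these lists litter P6H63 lay farther from the HIE litters than P6H55 did. Neural progenitor markers had a mean log2 CPM of 5.69 in P6H63, 4.08 in P6H55 and 4.10 and 4.00 in N5 and N8. In the same order, astrocyte markers had 9.12, 7.80, 7.55 and 7.64, and microglia markers 6.35, 9.41, 9.81 and 9.64. Choroid plexus markers had 6.69, 5.89, 4.59 and 5.22. The quasi-likelihood test called none of these markers, and the part of the lists other than microglia was not tested. All 20 mitosis genes had higher estimates in HIE, with a median of 0.29. The quasi-likelihood test called 0 of them and DESeq2 called 7. Without control P6H55-7, 8 members were called. The share of all genes called is not given for this fit or for that against litter P6H63 alone, so neither count is read as particular to the members. Among the controls, P6H55-12 was at or below the day's median for all 36 members, and P6H63-8 was the lowest of the 8 pups for 15 members. Among HIE pups, N8-4 was the highest of the day for 19. These counts per animal have no share of all genes beside them and are not read as particular to the members either.

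On P14, all 36 members had higher estimates in HIE than in control animals, again without a call. Of 36 members 0 passed the quasi-likelihood test, beside 0.00478% of all 20934 genes tested, and DESeq2 called 0. An unadjusted p under 0.05 was held by 8 members and by 2066 of all genes. The median log2 fold change was 0.22 beside 0.01 over all genes. It was 0.53 over the 6 helicase subunits, from 0.26 for Mcm7 to 0.62 for Mcm2 (SE 0.193, edgeR adjusted p = 0.313). The groups did not overlap for 2 members, beside 2.82% of all genes. Mcm3 had 39.97, 52.2, 30.00 and 30.2 CPM in HIE and 27.6, 29.4, 22.9 and 21.8 CPM in controls, a log2 fold change of 0.56. Rfc5, a clamp loader subunit, had 13.9, 15.1, 12.5 and 13.2 CPM in HIE and 10.4, 9.85, 11.7 and 11.4 CPM in controls, a log2 fold change of 0.32. For Mcm3 the lowest HIE and the highest control animal lay close together, at 30.00 and 29.38 CPM. In the P14 animals the summed microglia markers were 19348 to 30130.2 CPM in HIE and 17567 to 23530.1 CPM in controls, and all 11 had higher estimates, with a median of 0.20. All 6 neuron markers had lower estimates in HIE, with a median of -0.98, as had 7 of 8 neural progenitor markers (-0.91), 7 of 8 of the oligodendrocyte lineage (-0.74) and 6 of 6 erythroid markers (-1.56), while all 6 endothelial markers had higher ones (0.47). Estimates were also higher in 7 of 8 neutrophil and monocyte markers (0.83) and 6 of 6 choroid plexus markers (0.37). They were lower in 5 of 6 astrocyte (-0.33) and 5 of 6 border macrophage markers (-0.05). The quasi-likelihood test called none of these, and DESeq2 called 3 neuron and 3 neural progenitor markers lower. The summed neuron markers did not overlap, at 169.7 to 239.7 CPM in HIE and 253.2 to 529.1 CPM in controls, and the summed endothelial markers were 663.2 to 1044 CPM and 438.1 to 747.6 CPM. The neuron and endothelial markers kept these directions within each prefix, with medians of -0.95 and 0.47 in P4H and -0.86 and 0.33 in P6H. So did the medians of neural progenitor markers, at -1.16 in P4H and -0.34 in P6H. Those of the oligodendrocyte lineage turned, from -1.52 in P4H to 0.20 in P6H, as did erythroid markers, from -2.17 to 0.44. Choroid plexus, astrocyte and border macrophage medians turned too, from 0.92, -0.44 and 0.07 in P4H to -0.32, 0.02 and -0.23 in P6H. Neutrophil and monocyte markers had medians of 0.63 in P4H and 0.98 in P6H. The part of these markers in the difference was not tested.

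Within prefix P4H, litter P4H1 (HIE) was compared with litter P4H4 (control), 2 animals each. No member was called, beside 0.00437% of all 22887 genes tested. An unadjusted p under 0.05 was held by 8 members and by 2710 of all genes. DESeq2 called 1 higher, beside 0.59% of all genes, which was Prim2 at 0.41, with 14.99 and 16.2 CPM in HIE and 11.1 and 11.9 CPM in controls. The median was 0.27, 34 of 36 estimates were positive, and the helicase subunits had a median of 0.58. Rfc5 had the smallest p, at 0.49 (SE 0.139, edgeR adjusted p = 0.295), and Tk1 the smallest among negative values, at -0.11. Both HIE animals lay above both controls for 25 of 36 members, beside 25.9% of all genes. Those that overlapped were Cdc45, Gins1, Gins2, Rfc3, Rpa2, Pola2, Rrm2, Tyms, Tk1, Ccne2 and E2f1. Mcm2 had 30.4 and 35.1 CPM in HIE and 20.6 and 18.5 CPM in controls, and Mcm5 28.99 and 32.3 CPM and 19.6 and 17.6 CPM.

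Within prefix P6H, litter P6H12 (HIE) was compared with litter P6H8 (control). Again 0 members were called, beside 0.00437% of all genes, and DESeq2 called 0. An unadjusted p under 0.05 was held by 4 members and by 1167 of all 22887 genes. The median was 0.21 with 32 of 36 positive, and the helicase subunits had a median of 0.42. Mcm6 had the smallest p, at 0.51 (SE 0.150, edgeR adjusted p = 0.962), with 34.97 and 30.6 CPM in HIE and 24.1 and 21.7 CPM in controls. Ccne1 had the smallest among negative values, at -0.20. For 24 of 36 members both HIE animals lay above both controls, beside 18.2% of all genes. The 12 others were Cdt1, Gins2, Pcna, Rfc4, Rpa1, Pola2, Prim2, Pold1, Fen1, Rrm2, Ccne1 and E2f1. In each prefix a litter stands for a treatment, so these values compare 2 litters. The 20 mitosis genes had a median of -0.04 and 6 of 20 positive within P4H and a median of 0.33 and 20 of 20 positive within P6H. The difference of the HIE effect between prefixes passed for 0 members, beside 0% of all genes, and for 0 by DESeq2. An unadjusted p under 0.05 was held by 2 members and by 1141 of all 22887 genes. The 2 members were Tk1 at -0.63 (SE 0.255) and Prim2 at 0.43 (SE 0.175), both with an edgeR adjusted p of 0.962.

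Between prefixes, averaged over HIE and control animals, P4H animals were higher. Of 36 members 33 had positive estimates with a median of 0.34, beside 0.01 over all genes. An unadjusted p under 0.05 was held by 21 members and by 5742 of all 22887 genes. The quasi-likelihood test called 0, beside 0.931% of all genes. DESeq2 called 13 higher, beside 4.91% of all genes, namely Mcm2 to Mcm7, Pcna, Gins1, Prim1, Uhrf1, Pole, Fen1 and Rrm1. Mcm6 had the smallest p, at 0.52 (SE 0.106, edgeR adjusted p = 0.0508), with 44.6, 49.5, 33.8 and 31.01 CPM in P4H and 34.97, 30.6, 24.1 and 21.7 CPM in the HIE and control animals of P6H. Both P4H4 controls lay below HIE animal P6H12-14F, so the prefixes overlapped. The smallest p among negative values was that of Pola2, at -0.04. The 4 animals of P4H lay above those 4 of P6H for 8 members, beside 7.16% of all genes, namely Pcna, Gins1, Prim1, Mcm7, Rpa1, Rpa2, Rfc4 and Cdt1. Pcna had 70.2, 70.4, 59.2 and 64.3 CPM in P4H and 50.03, 45.7, 48.6 and 48.4 CPM in P6H, a log2 fold change of 0.46. Gins1, a subunit of the GINS complex, had 3.46, 3.68, 2.73 and 3.81 CPM and 2.39, 2.68, 1.84 and 1.73 CPM, a log2 fold change of 0.69. Prim1, the catalytic primase subunit, had 6.63, 6.03, 5.64 and 5.03 CPM and 4.15, 3.86, 3.54 and 3.84 CPM, a log2 fold change of 0.61. All 20 mitosis genes were higher too, with a median of 0.45, and the median of 11 microglia markers was 0.25. All 6 astrocyte markers had higher estimates in P4H (0.73), as had 6 of 6 endothelial (0.53) and 5 of 6 erythroid markers (1.82). The quasi-likelihood test called none of them, and DESeq2 called 1, 5 and 1. Summed endothelial markers did not overlap, at 675.5 to 1044 CPM in P4H and 438.1 to 670.3 CPM in P6H, and summed astrocyte markers were 2210.3 to 3292 CPM and 1254 to 2308 CPM. The part of these markers in the difference was not tested. What the prefixes stand for is not given in the sources used here, and scaling by library size alone shifted the median of all genes by -0.13.

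In the hypoxia group, compared with the controls of the same prefix, all 36 estimates were higher. The median was 0.42, beside -0.01 over all genes, and 0.66 over the helicase subunits, from 0.48 to 0.72. The quasi-likelihood test called 0 members, beside 0.00437% of all genes. An unadjusted p under 0.05 was held by 19 members and by 1987 of all 22887 genes. DESeq2 called 1, Mcm6, beside 0.201% of all genes. Mcm6 had 34.2, 38.5, 43.8 and 34.5 CPM in hypoxia and 24.1 and 21.7 CPM in controls, a difference of 0.72 on the log2 scale (SE 0.134, edgeR adjusted p = 0.407). All 4 hypoxia animals lay above both controls for 24 members, beside 7.76% of all genes. The 12 others were Cdt1, Cdc45, Gins2, Rfc2, Rfc4, Rpa1, Rpa2, Pola1, Fen1, Rrm2, Ccne1 and E2f1. These 2 control animals, P6H8-8F and P6H8-7M, also served the HIE comparison within P6H, and were above the P14 median for 2 and 1 of 36 members. For these 2 counts the share of all genes is not given. With the controls of both prefixes the median was 0.23. All 6 endothelial markers had higher estimates in hypoxia, with a median of 0.61 and an unadjusted p under 0.05 in 6, and DESeq2 called 1. Their sum was 632.6 to 1014 CPM in hypoxia and 438.1 to 606.1 CPM in these controls, with no overlap. Neuron and choroid plexus markers had lower estimates in 6 of 6 each, with medians of -0.66 and -0.68, and 10 of 11 microglia markers had higher ones, with a median of 0.17. The quasi-likelihood test called none of these markers, and their part in the difference was not tested.

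HIE animals of P6H were lower than hypoxia animals in 34 of 36 estimates, with a median of -0.16 beside -0.01 over all genes, and 0 were called, beside 0.00437% of all genes. DESeq2 called 0, and beside 1362 of all 22887 genes, 1 member had an unadjusted p under 0.05. This was Pcna, with 50.03 and 45.7 CPM in HIE and 67.8, 72.8, 75.1 and 51.8 CPM in hypoxia, a difference of -0.49 on the log2 scale (SE 0.140, edgeR adjusted p = 0.824). Tk1 had the smallest p among positive values, at 0.26 (SE 0.154), and was the 1 member with both HIE animals above all hypoxia animals. The share of all genes with that pattern is not given, so the count is not read as particular to the members. Both HIE animals lay below all 4 hypoxia animals for 6 members, beside 6.48% of all genes, namely Pcna, Prim2, Pole, Ccne1, Mcm4 and Gins1.

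**Figure D4:**
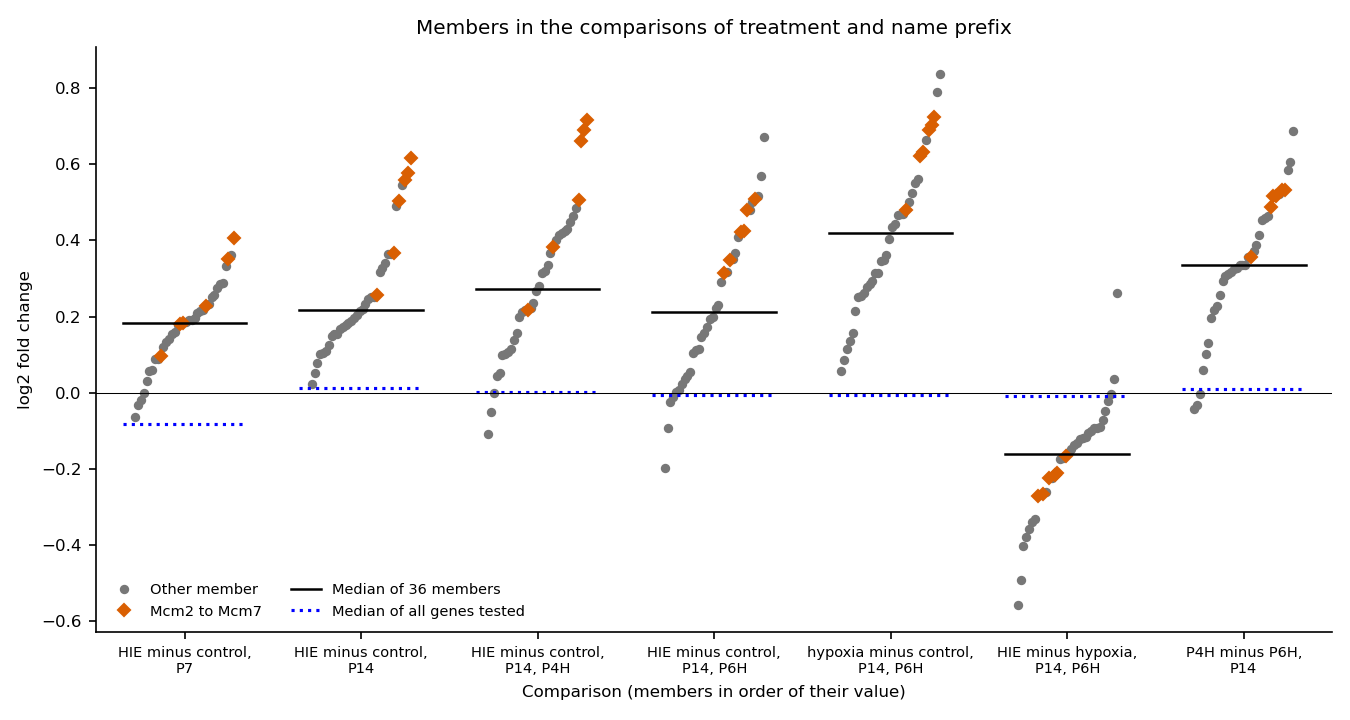
Log2 fold change (vertical axis) of the 36 members, in order of value within each comparison (horizontal axis), with Mcm2 to Mcm7 as diamonds, a solid line at the members' median and a dotted line at the median of all genes tested. Medians of the members run from -0.16 (HIE minus hypoxia) to 0.42 (hypoxia minus control). In the P14 comparisons of HIE or hypoxia with control the helicase subunits lie above the members' median, except Mcm7 (0.22) within P4H.

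Some litters and animals stood at the ends of the P14 range for most members. HIE animals P4H1-6F and P4H1-1M were above the median of the 12 animals for 35 and 32 of 36 members, and hypoxia animal P6H9-14M for 33. These 3 held the 3 highest values for each of the 6 helicase subunits. Control animals P6H8-8F and P6H8-7M were above the median for 2 and 1 members, whereas P4H4-8M and P4H4-7F of the same treatment were above it for 21 and 11. The share of all genes is not given for these counts per animal, so they are not read as particular to the members. The helicase and mitosis genes did not rank the animals alike. Hypoxia animal P6H9-14M had a mean log2 CPM of 5.17 over Mcm2 to Mcm7 and 2.99 over the 20 mitosis genes, whereas its littermate P6H9-15F had 4.62 and 3.58. The mean over all members was 3.63 ± 0.21 (SD, n = 4) in HIE, 3.35 ± 0.17 in control and 3.61 ± 0.14 in hypoxia animals, beside 5.25 ± 0.08 and 5.06 ± 0.10 in HIE and control animals of P7. For comparison, the repeat libraries of P4H1-6F and P6H12-11M differed by a median of 0.09 and 0.14 (absolute log2) over the members.

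**Figure D5:**
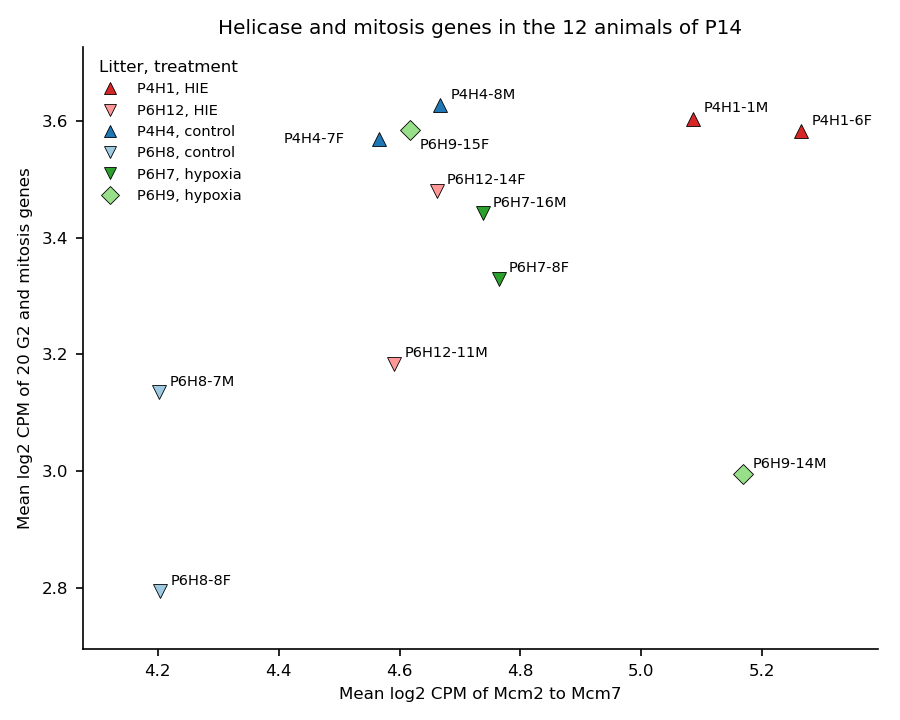
Mean log2 CPM of Mcm2 to Mcm7 (horizontal axis) against that of 20 genes of G2 and mitosis (vertical axis) in the 12 animals of P14, with symbols for litter and treatment. P4H1-1M, P4H1-6F and P6H9-14M lie farthest right, the last of them at 2.99 on the vertical axis beside 3.58 to 3.60 for the other two, and both P6H8 controls lie farthest left.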

How the data were processed

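Bulk RNA sequencing of 22 libraries from 20 animals was analysed. The authors deposited expected counts per gene, not scaled for library size, in a table for P7 and another for P14, and all columns of values were used (0 left out). The submitters' processing notes name FastQC, STAR, RSEM and GRCm39. RSEM divides reads among similar genes, so counts of genes with near-identical copies are uncertain.

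Expected counts were summed per animal and rounded. Symbols and positions came from GENCODE M39 (56017 of 56691 identifiers matched), promoters from RefSeq. Groups came from the labels. The main test was edgeR 4.0.16's quasi-likelihood test (R 4.3.3) with TMM scaling, the filterByExpr filter and Benjamini-Hochberg adjustment over all genes, at 0.05. It was fitted to the 8 animals of a day's HIE and control groups, to the 12 P14 animals as means of treatment and prefix, or to the 16 HIE and control animals. SE was the absolute log2 fold change over the root of F. CPM used TMM over all animals, and log2 CPM a prior count of 2. The test was tried on simulated counts.

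Alternatives were DESeq2 1.42.0, library size alone, no filter beyond 1 count, leaving out each animal, single control litters, males alone, 1 library per animal, controls of both prefixes, and the microglia score, prefix or sex label as terms. Most of those for the within-prefix comparisons and the difference between treatments were added after seeing the data. Members and lists were chosen with earlier results of these data known. By rule, 19 members covering every role were given animal by animal, with members past the threshold (up to 10 by p), or otherwise the smallest p in each direction and members whose groups did not overlap, and up to 3 genes per direction of the wider list. Other members were named after their values were seen.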

Additional observations from a re-analysis of the deposited data

Results flagged for a closer look

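The CPM of the 19 members described animal by animal, and the mean log2 CPM over all members, were examined for a single distant animal in each group of 4, 100 sets of values in all. In 2 of them the gap between the farthest animal and its nearest neighbour, divided by the range of the group, exceeded Dixon's critical value, which chance exceeds in about 1 in 20 sets. For Rpa2, control P6H55-7 of P7 had 20.8 CPM where the other 3 controls had 16.8 to 17.1 CPM, a gap of 0.917 of the range. For E2f1, HIE pup N8-4 of P7 had 45.1 CPM where the other 3 HIE pups had 37.4 to 38.6 CPM, a gap of 0.848 of the range.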

How the results depend on the processing

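The fall of the members from P7 to P14 kept its direction and its call in 1440 of 1440 pairs of a member and an alternative, over 20 alternatives in each treatment, with medians of -1.80 to -1.61 (control) and -1.72 to -1.56 (HIE) on leaving out 1 animal. Scaling by library size alone moved the control median to -1.90 and that of the difference between treatments to 0.23, as it moved the median of all genes by -0.16 and 0.15. On P7, leaving out 1 animal gave 0 to 8 called members and medians of 0.14 to 0.27. Library size alone turned the P7 median to -0.0113, Ccne2 to -0.0549, Pola1 to -0.0102 and Tyms to -0.0275. DESeq2 called 7, the controls of litter P6H63 alone gave 22 and a median of 0.30, and the microglia covariate gave a median of 0.0914. Rfc4 turned to 0.0355 with litter P6H55 alone and to 0.055 with that covariate. In HIE against control on P14 no alternative gave a call, and the medians were 0.16 to 0.30 on leaving out 1 animal. Within P4H, DESeq2 called 1, and Tk1 ran from -0.29 to 0.11, the latter without control P4H4-8M. Within P6H, Ccne1 ran from -0.69 to 0.21, with 0.21 without control P6H8-8F and 0.12 without HIE animal P6H12-14F. For P4H against P6H, DESeq2 called 13 and no filter 5. Leaving out 1 animal there gave 0 to 4, with 4 without hypoxia animal P6H9-15F and 1 without control P6H8-8F, and Pola2 ran from -0.14 to 0.0338, with 0.0338 and 0.0111 without HIE animals P4H1-1M and P6H12-11M. For hypoxia, DESeq2 and no filter called 1 each, and the controls of both prefixes gave a median of 0.23 and Tk1 at -0.0032. The cause of these changes was not tested, and the share of all genes called is not given for refits other than DESeq2. No paired analysis was possible because the labels give no replicate numbers that tie animals of different groups. A member rested on at least 25 reads in every animal, and counting error was not compared with the spread between animals. Groups of 4, and 2 controls within a prefix, limit the treatment comparisons. Every group of 4 was made of pairs of littermates, fitted without a litter term, and leaving out 1 animal kept its littermate. This limit holds for the comparisons of age as well.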
